A study of Mus musculus with 20 samples.

Results

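Acetylation of histone H3 at lysine 27 (H3K27ac) was followed at 10 transcription factor genes that build or maintain the myeloid lineage, of 21887 protein-coding genes in the annotation. The genes were taken by symbol: Spi1, Fli1, Ets2, Cebpa, Cebpb, Runx1, Mef2c, Mef2a, Klf4 and Zeb2. Each was examined over its annotated span on GRCm38 plus 25 kb on either side, called its window. The cells were RAW264.7, 1 established mouse macrophage line that can turn into osteoclast-like cells, and all libraries came from it. Peak lists existed for 3 untreated libraries, 3 libraries from cells given RANKL (50 ng/ml, 4 h), 3 given RANKL and I-BET together (I-BET at 500 nM, 4 h) and 1 given I-BET alone (500 nM, 4 h). RANKL is the cytokine that starts osteoclast formation, and I-BET is an inhibitor of the BET proteins, which bind acetylated histones. Nothing in the labels says that replicates were grown apart, so a p-value here reflects only how far these libraries differed, which may be technical.

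H3K27ac marks active promoters and enhancers, and broad stretches of it are typical of genes that set cell identity. Spi1 encodes PU.1, the ETS factor that macrophages and osteoclasts require, and C/EBP and RUNX factors work beside it in myeloid progenitors. MEF2 factors, KLF4 and ZEB2 act later, in the choice and maintenance of monocyte and macrophage fates.

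The lists differed in length before any gene was considered. Replicates 1 and 3 of the untreated, RANKL and RANKL plus I-BET groups covered 16.1 to 25.9 Mb each, whereas the replicate 2 lists covered 7.79 Mb (untreated), 185 Mb (RANKL) and 3.44 Mb (RANKL plus I-BET). The replicate 2 lists are therefore given apart, and comparisons rest on replicates 1 and 3 unless they are named. Among the replicate 1 and 3 lists of these groups, untreated replicate 1 stood apart. In it 57.7% of peaks had a -log10 q under 2, against 15.8 to 20.9% in the others. Its median peak width was 676 bp, against 1014 to 1167 bp. Of 10 macrophage and monocyte markers, 7 to 10 had a peak within 1 kb of a gene start in each list. Of the 6 markers in each of 6 other lists (B cell, T cell, neutrophil, erythroid and megakaryocyte, fibroblast and osteoblast, and genes foreign to the culture), 0 or 1 had one, except in RANKL replicate 2, where 4 to 6 did. In that list B cell markers had 114 kb under peaks, against 0.445 to 8.97 kb in the others.

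The 250 bases before 5 gene starts are shown, since peaks over them differed between treatments or between the starts of 1 gene. They are from RefSeq (GRCm38.p6), which listed 14 starts for 8 members. Spi1 and Fli1 had no entry. Capitals mark matches, on either strand, to motifs of the factor families: ETS (GGAAGT), C/EBP (TTGCNNAA), RUNX (TGTGGT), MEF2 (CTA and TAG parted by 4 bases), KLF (CACCC) and ZEB (CACCTG). Klf4 and Runx1 start 1 are shown because peaks lay over these bases in RANKL lists and in no untreated list, Runx1 start 2 as the other start of that gene. Mef2c start 1 had no peak in any list, and start 2 had peaks in most.
Klf4 start 1, chr4:55532476-55532725, minus strand: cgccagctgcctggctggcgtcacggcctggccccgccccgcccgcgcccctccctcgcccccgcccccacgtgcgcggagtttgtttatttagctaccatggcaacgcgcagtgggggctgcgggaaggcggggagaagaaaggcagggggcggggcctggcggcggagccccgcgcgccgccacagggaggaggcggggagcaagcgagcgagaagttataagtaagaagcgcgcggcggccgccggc
Runx1 start 1, chr16:92826075-92826324, minus strand: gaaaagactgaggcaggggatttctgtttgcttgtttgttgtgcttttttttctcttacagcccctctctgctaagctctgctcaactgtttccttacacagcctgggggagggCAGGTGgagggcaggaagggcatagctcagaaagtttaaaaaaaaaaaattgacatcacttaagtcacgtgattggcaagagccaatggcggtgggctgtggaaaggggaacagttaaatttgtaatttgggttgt
Runx1 start 2, chr16:92697330-92697579, minus strand: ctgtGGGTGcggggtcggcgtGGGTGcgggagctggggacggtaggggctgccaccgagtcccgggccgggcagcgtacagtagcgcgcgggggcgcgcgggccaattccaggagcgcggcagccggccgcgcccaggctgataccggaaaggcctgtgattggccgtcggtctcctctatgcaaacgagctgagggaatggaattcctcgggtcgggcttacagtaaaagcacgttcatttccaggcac
Mef2c start 1, chr13:83503784-83504033, plus strand: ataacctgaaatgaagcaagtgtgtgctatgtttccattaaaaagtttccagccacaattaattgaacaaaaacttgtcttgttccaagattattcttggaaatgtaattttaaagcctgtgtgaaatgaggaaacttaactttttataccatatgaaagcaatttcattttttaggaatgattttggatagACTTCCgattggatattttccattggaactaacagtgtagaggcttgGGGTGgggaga
Mef2c start 2, chr13:83523406-83523655, plus strand: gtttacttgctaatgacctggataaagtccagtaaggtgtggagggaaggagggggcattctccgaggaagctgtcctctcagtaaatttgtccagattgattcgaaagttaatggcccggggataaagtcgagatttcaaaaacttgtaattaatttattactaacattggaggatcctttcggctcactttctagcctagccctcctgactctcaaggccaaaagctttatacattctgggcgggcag

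The 5 stretches differed in composition. The Klf4 stretch was 74% G and C with 32 CpG pairs, Runx1 start 2 was 67.6% with 27, and Runx1 start 1 was 45.6% with 2. Mef2c start 1 was 33.6% G and C with 1 CpG pair, and Mef2c start 2 was 44.8% with 6, against medians of 52.4% and 6 over 32536 promoters. No RUNX or MEF2 match was found in the 14 member stretches, matches that 13.96% and 3.22% of all promoters held. The single ZEB match was at Runx1 start 1 (17.3% of all promoters), the single ETS match at Mef2c start 1 (19.8%) and the single C/EBP match at Zeb2 start 1 (9.57%). KLF matches were the commonest, with 1 to 3 at 8 of the 14 starts, beside 52.1% of all promoters with at least 1. These matches describe letters and not bound sites.

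Klf4 encodes a zinc-finger factor that promotes the monocyte fate, and its window held 1 acetylated region, over the gene start. An end of the long noncoding RNA Gm12506 lies in this region too, so its peaks cannot be assigned to one of these genes. In untreated replicate 3, RANKL plus I-BET replicates 2 and 3 and I-BET alone, no covered length lay inside Klf4. In the untreated lists the peaks stopped short of the start: they ended 694, 315 and 266 bases before it in replicates 1, 2 and 3, and replicates 1 and 2 had a second peak beyond it. In the RANKL lists 1 unbroken peak ran across the start, 4376 bp wide in replicate 1, 4790 bp in replicate 2 and 2119 bp in replicate 3. With RANKL plus I-BET the peak crossed the start in replicate 1 (3805 bp), while it ended 362 and 211 bases before it in replicates 2 and 3. With I-BET alone it ended 307 bases before the start. The start itself thus lay under a peak in all 3 RANKL lists, 1 of 3 RANKL plus I-BET lists and no untreated list.

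Over the window, Klf4 had 1.80, 1.82 and 0.582 kb under peaks in untreated replicates 1, 2 and 3. The RANKL lists had 4.38, 5.96 and 2.12 kb, the RANKL plus I-BET lists 3.81, 0.829 and 0.642 kb, and the I-BET list 0.806 kb. All RANKL lists were above all untreated lists, and the RANKL plus I-BET lists spanned both. The authors' fold enrichment of its strongest peak lay between the 12.7th and 75.7th percentile of its own list. After each list was centred on its median gene, the difference between RANKL and untreated was 0.71 ± 0.68 (log2, SE, n = 2 lists a group) and did not pass limma's test (adjusted p = 0.871, and 0.374 to 0.998 under 17 alternative settings, 4 of which turned its sign).

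Runx1 encodes the RUNX factor needed for definitive blood formation and has 2 listed starts about 129 kb apart. At the distal start, start 1, peaks covered 100%, 100% and 64% of the 250 bases in RANKL replicates 1, 2 and 3 and 100% in RANKL plus I-BET replicate 1. They covered 0% in every other list. In untreated replicates 1, 2 and 3 the nearest peak began 213, 560 and 204 bases inside the gene. In RANKL plus I-BET replicate 3 and with I-BET alone it began 159 and 163 bases inside. At start 2 the 250 bases were covered in full in 8 of 10 lists, the exceptions being untreated replicate 1 and RANKL plus I-BET replicate 2.

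A peak over the 250 bases in both RANKL lists and neither untreated list was found at 2 of the 14 member starts, Klf4 and Runx1 start 1. Among 9873 starts with a peak there in any of the 6 lists, 7.09% had this pattern. With replicate 2 included the same 2 starts showed it, against 5.93%. When the 6 lists were reduced to one covered length, their peaks of highest -log10 p being kept, 0 of the 14 did, against 4.48%. At Klf4 both RANKL plus I-BET lists also had a peak there, over 100% of the 250 bases in replicate 1 and 16% in replicate 3. A peak in both of these lists and in neither untreated list was a pattern of 3.95% of starts. All 6 lists had one at 5 of the 14 member starts (Ets2, Mef2a, Mef2c starts 2 and 3, and Zeb2 start 4), beside 37.2%. These shares are of starts with a peak there, whereas only 13 of the 14 member starts had one in any list. Mef2c start 1 was the exception, and the 250 bases of Zeb2 starts 2 and 3 overlap.

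**Figure D1:**
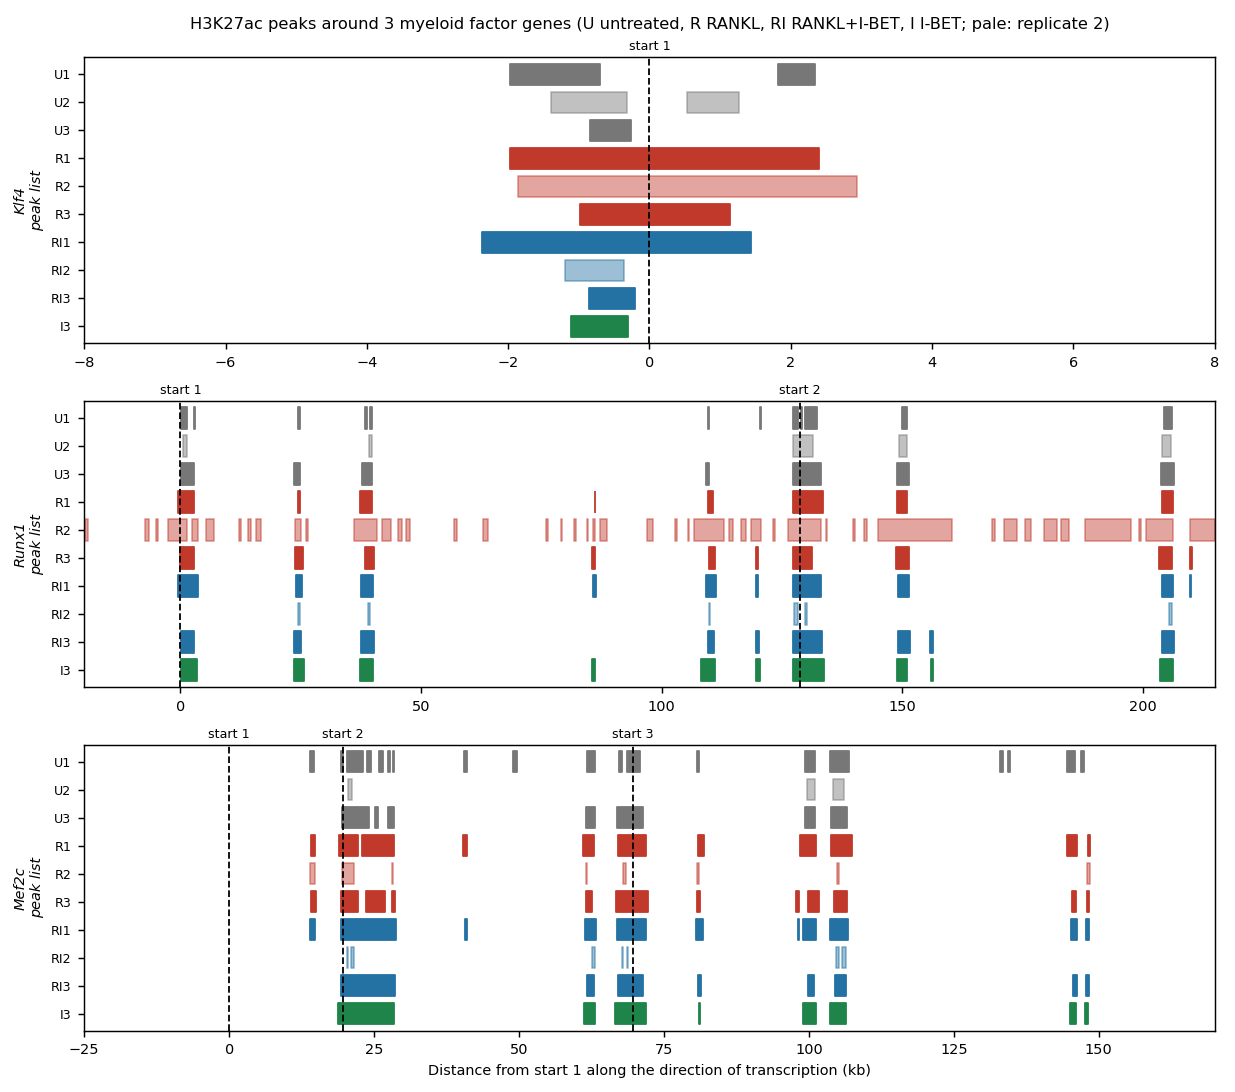
Peaks in each of the 10 lists around Klf4, Runx1 and Mef2c, drawn as bars against distance from start 1 (kb, direction of transcription to the right), with dashed lines at the listed starts. In RANKL replicates 1, 2 and 3 the Klf4 peak crosses the start and is 4376, 4790 and 2119 bp wide, and no bar lies over Mef2c start 1.

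**Figure D2:**
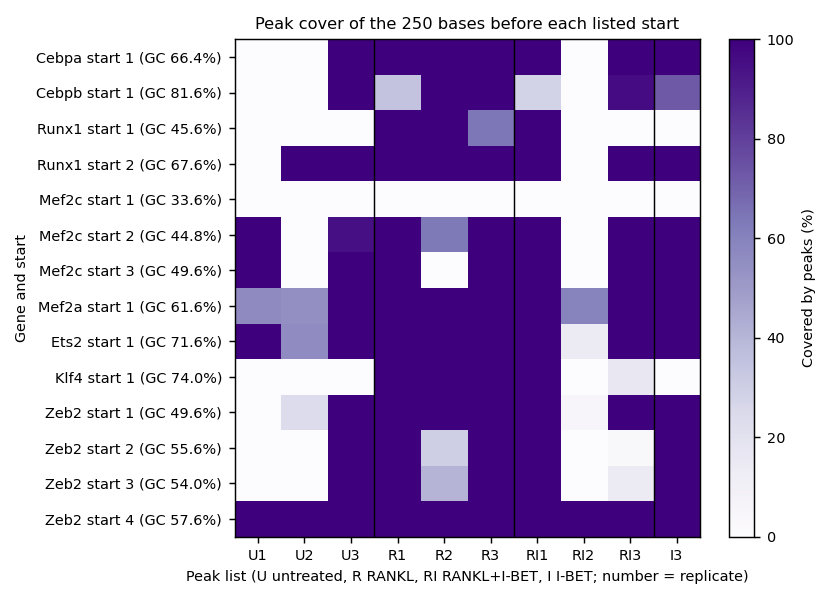
Percentage of the 250 bases before each of 14 listed starts that lay under peaks, by list (rows: starts with their G and C content; columns: lists). Klf4 and Runx1 start 1 are dark in the 3 RANKL columns and white in the untreated ones, while Mef2c start 1 is white in all 10 lists.

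Mef2c encodes a MADS-box factor of monocytes, B cells and muscle, and its 3 listed starts behaved differently. Start 1 had no peak within 1 kb in any list. Start 2 had one in all 10 lists and start 3 in 8. In the I-BET list and in RANKL plus I-BET replicates 1 and 3 a single peak of 9.71, 9.54 and 9.44 kb ran across start 2 into the gene. In untreated replicate 3 the peak across start 2 was 4.79 kb wide, and in RANKL replicates 1 and 3 it was 3215 and 2853 bp. Further peaks lay just inside start 2, of 5.60 kb in RANKL replicate 1 and of 3218 and 510 bp in RANKL replicate 3. Those of untreated replicate 3 were 516 and 1068 bp wide. In untreated replicate 1 a peak of 362 bp ended at start 2, and separate peaks of 145 to 2703 bp followed inside. Peaks covered 90.9% and 67.9% of the 9692 bp region over start 2 in RANKL replicates 1 and 3. The shares were 51.8% and 65.7% in untreated replicates 1 and 3, and 97.0% and 97.4% in those of RANKL plus I-BET. I-BET alone had 97.3%.

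Replicates 1 and 3 had 19.3 and 17.0 kb under peaks at Mef2c when untreated, 26.1 and 20.2 kb under RANKL, and 25.9 and 19.9 kb under RANKL plus I-BET. The I-BET list had 23.9 kb. The replicate 2 lists had 3.99 kb (untreated), 5.06 kb (RANKL) and 2.48 kb (RANKL plus I-BET). RANKL replicate 2 was the longest list by far, and the list with the most covered length at 8 of the 10 members, yet at Mef2c it had less than every list of replicates 1 and 3. Every peak in the Mef2c window lay inside the gene. Mef2a, the related factor with a wider tissue range, had 2.09, 2.10 and 2.95 kb in the untreated lists, 3.06, 16.1 and 3.46 kb with RANKL, 4.53, 0.286 and 2.63 kb under RANKL plus I-BET, and 3.07 kb with I-BET. In replicates 1 and 3 this came from 1 region over the start, apart from 0.409 kb beside Lysmd4 in RANKL plus I-BET replicate 1.

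Spi1 was the most densely acetylated member. It had 15.3, 10.9 and 18.3 kb under peaks in the untreated lists and 18.5, 52.2 and 20.2 kb in the RANKL lists. It had 18.1, 9.12 and 20.7 kb with RANKL plus I-BET and 21.4 kb with I-BET. In replicates 1 and 3 both RANKL lists exceeded both untreated lists, though the nearest pair, 18.3 and 18.5 kb, lay close. Its widest peak ranked from the 99.6th percentile of width upwards in every list. A region of 11369 bp lay over the lower end of the gene (chr2:91080179-91091547) and one of 6266 bp inside it (chr2:91095843-91102108), both held by all 10 lists. A flanking region next to Slc39a13 and the long noncoding RNA Gm39874 was 3959 bp wide, and its peaks cannot be assigned to one of these genes.

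Fli1, an ETS factor of blood and endothelial cells, had 11.2, 3.99 and 8.88 kb in the untreated lists and 12.2, 39.2 and 12.9 kb with RANKL. It had 17.8, 1.16 and 11.1 kb with RANKL plus I-BET and 14.5 kb with I-BET. In untreated replicate 1 the strongest Fli1 peak had a fold enrichment of 1.33, at the 2.6th percentile of that list. In the other lists the strongest peak was at the 63.7th to 93.9th percentile of its own list. Of the 8 Fli1 regions, 7 lay inside the gene. The 4744 bp region over its upper end ran past the gene, by 0.297 kb in RANKL plus I-BET replicate 1, and was held by all 10 lists. Ets2, an ETS factor downstream of growth factor signalling in macrophages, had far less: 2.14, 0.188 and 1.11 kb untreated, 2.67, 15.4 and 2.94 kb with RANKL, 3.73, 0.935 and 1.56 kb under RANKL plus I-BET, and 2.15 kb with I-BET. Its RANKL lists were above its untreated lists, and the RANKL plus I-BET lists lay on both sides of them.

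Cebpa encodes the factor that commits progenitors to granulocytes and monocytes. It had 2.88, 1.28 and 4.99 kb in the untreated lists, 3.14, 24.7 and 3.80 kb with RANKL, 3.97, 0.351 and 4.45 kb under RANKL plus I-BET, and 4.28 kb with I-BET. It was the 1 member whose untreated and RANKL lists overlapped in replicates 1 and 3. A region of 806 bp 19.9 kb upstream of it (chr7:35098596-35099401) was held by untreated replicates 1 and 3 and by no RANKL list. RANKL plus I-BET replicate 3 and I-BET alone held it too. In replicates 1 and 3 this pattern, untreated and not RANKL, occurred in 0.19% of 21013 regions. When the lists were reduced to one covered length, it occurred in 6.31% of all regions and 3.70% of member regions.

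Cebpb, a C/EBP factor induced by inflammatory signals, had 3.76, 0.354 and 3.92 kb in the untreated lists and 4.72, 32.2 and 5.05 kb with RANKL. It had 3.80, 0 and 4.08 kb with RANKL plus I-BET and 3.30 kb with I-BET. Both RANKL plus I-BET lists of replicates 1 and 3 were below both RANKL lists, an order that turned when lists were reduced to one covered length, and it was the 1 member absent from RANKL plus I-BET replicate 2. Its peaks over the start share their region with the neighbouring long noncoding RNA A530013C23Rik.

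Zeb2 encodes a zinc-finger repressor that preserves macrophage identity. It had 13.6, 6.31 and 14.7 kb in the untreated lists, 15.6, 19.4 and 19.4 kb with RANKL, 20.001, 4.84 and 18.7 kb under RANKL plus I-BET, and 18.9 kb with I-BET. Its 4 listed starts lay in 1 region of 14867 bp (chr2:45104060-45118926) that also holds Zeb2os, named for its opposite strand. Runx1 had 9.35, 9.27 and 17.5 kb in the untreated lists, 17.99, 99.4 and 18.6 kb with RANKL, 22.04, 2.70 and 20.5 kb under RANKL plus I-BET, and 23.9 kb with I-BET. For Runx1 the 2 RANKL plus I-BET lists of replicates 1 and 3 were above both RANKL lists and both untreated lists.

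**Figure D3:**
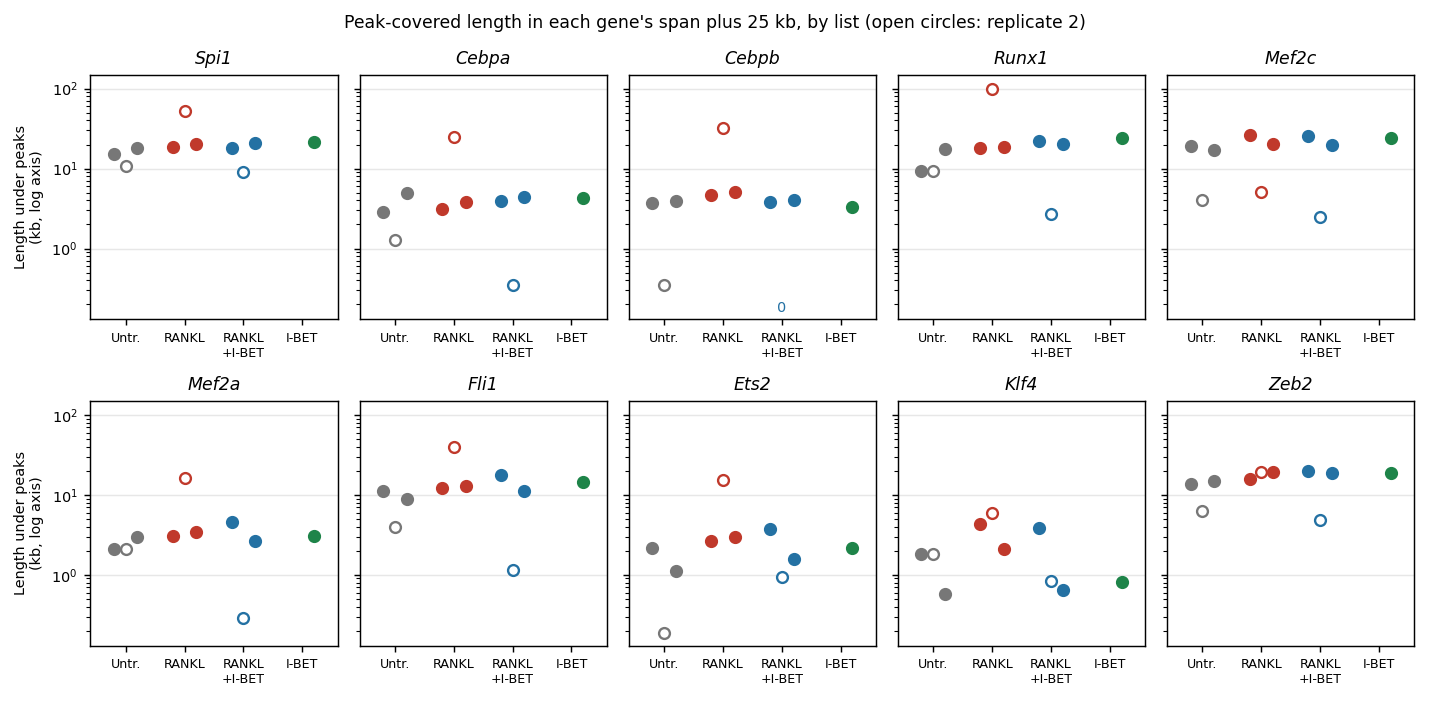
Length under H3K27ac peaks in each gene's window (kb, log axis) for the 10 lists, grouped by treatment; filled circles are replicates 1 and 3, open circles replicate 2, and a printed 0 means no peak. In replicates 1 and 3 the RANKL points lie above the untreated ones at 9 of 10 members, and the open RANKL circle lies far above at most members but not at Mef2c.

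As a share of the window, members were richer in H3K27ac than most genes. The mean over the 6 lists was 22.2% ± 2.29 (SD over the 6 lists) at Spi1, and its lowest list, 18.4%, was above the highest list of every other member. Mef2c had 10.04%, Zeb2 9.25%, Cebpb 8.19%, Cebpa 7.36%, Fli1 7.21%, Runx1 6.43%, Klf4 4.01%, Ets2 3.44% and Mef2a 1.60%. Below Spi1, the ranges of neighbours in this order overlapped. The median of the 12186 genes tested was 2.86%, and 9 of 10 members were above it, Spi1 at the 98.9th percentile and Mef2a at the 26.3rd. Ranked by covered length instead, members ran from the 48.4th percentile (Klf4) to the 99.6th (Mef2c), with Mef2a at the 63.9th.

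The share of the window also named 1 gene outside the set most like each member over the 10 lists. Spi1 was nearest to Csf1r, the M-CSF receptor gene (mean absolute difference 2.15 percentage points), and Mef2c to Tlr4 (1.17). The others were Cebpa with Sgca, Cebpb with Lrrc14, Runx1 with Cldn7, Mef2a with Odf2l, Fli1 with Kcnk13, Ets2 with Vipas39, Klf4 with Sowahc and Zeb2 with Slc38a2, at 0.222 to 0.926 points.

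A peak lay within 1 kb of a start, or of either gene end where no start was listed, in all 6 lists of replicates 1 and 3 for 8 of 10 members. Cebpb and Fli1 were the exceptions: Cebpb lacked one in 1 of the 6 lists, and Fli1 had one in 2. Of the 17492 genes with a listed start, 30.2% had such a peak in all 6 lists. Of the 8 members with a listed start, 7 had one, the exception being Cebpb. Spi1 was counted by the lower end of the gene. Within 2.5 kb, 10 of 10 members had a peak in all 6 lists, beside 31.5% of genes. At a -log10 q of at least 5, or with 10 lists at one covered length, 0 members did, beside 0.0114% of genes.

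Across replicates 1 and 3, the covered lengths of RANKL and untreated lists did not overlap at 9 of 10 members, all with RANKL higher. This was also so for 53% of all genes tested, the RANKL lists being longer than the untreated ones. The reverse was found at 0 members, against 1.28% of genes. Once each list was centred on its median gene, 3 of 10 members were positive, with a median difference of -0.14 (log2), beside 46.5% positive and a median of -0.03 for all genes. With lists at one covered length, 1 member (Ets2) stayed higher, against 20.2% of genes, and 1 (Cebpb) was lower, against 13.9%. With replicate 2 included, RANKL was higher without overlap at 8 members, all but Cebpa and Mef2c, against 51.4% of genes.

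No member passed limma's test in any of the 3 comparisons, and neither did any other gene (0 of 12186 at an adjusted p under 0.05, limma). At an unadjusted p under 0.05, limma gave 488 genes for RANKL against untreated, 212 for RANKL plus I-BET against RANKL and 451 for RANKL plus I-BET against untreated. Each count was less than a 0.05 share of the 12186 genes, the share this threshold lets through when no gene differs. The largest centred RANKL differences among members were 0.71 at Klf4 and -0.59 ± 0.23 (SE) at Cebpa (limma, unadjusted p = 0.0362, adjusted p = 0.867). For Cebpa the adjusted p was 0.350 to 0.998 under 18 alternatives, 1 of which turned the sign. The remaining members lay between -0.26 and 0.22.

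RANKL plus I-BET against RANKL gave a positive centred difference at 8 of 10 members, with a median of 0.21, beside 55.7% and 0.03 for all genes. The exceptions were Cebpb (-0.11 ± 0.21) and Klf4 (-0.52 ± 0.68). Cebpa (0.42 ± 0.23), Runx1 (0.38 ± 0.20), Fli1 (0.33 ± 0.26) and Zeb2 (0.32 ± 0.16) were the largest, and none passed limma's test (adjusted p = 1.00). As deposited, the lists did not overlap at 2 members with RANKL plus I-BET higher (Cebpa and Runx1), against 6.3% of genes, and at 1 with it lower (Cebpb), against 29.7%. With lists at one covered length it was higher at 3 (Cebpa, Cebpb and Runx1), against 15.1%, and lower at 0, against 16.9%. With replicate 2 included it was higher at 0, against 0 of 12186 genes, and lower at Cebpb alone, against 29.1%.

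RANKL plus I-BET against untreated gave a positive centred difference at 7 of 10 members, with a median of 0.13, beside 49% and -0.01 for all genes. Runx1 had the largest, 0.41 ± 0.20 (SE, limma, adjusted p = 0.945, lowest 0.125 under 18 alternatives), and its sign held in all 18. The difference was 0.15 without untreated replicate 1 and 0.68 without untreated replicate 3. Runx1, Mef2c and Zeb2 had RANKL plus I-BET lists above both untreated lists as deposited, 3 members against 34.6% of genes, and 0 members had them lower, against 2.87%. At one covered length Cebpb, Runx1 and Zeb2 did, against 19.3%, and 0 were lower, against 12%. With replicate 2 included no member was higher (0.468% of genes) or lower (0.041%). These comparisons share their untreated and RANKL lists, so they are not independent.

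**Figure D4:**
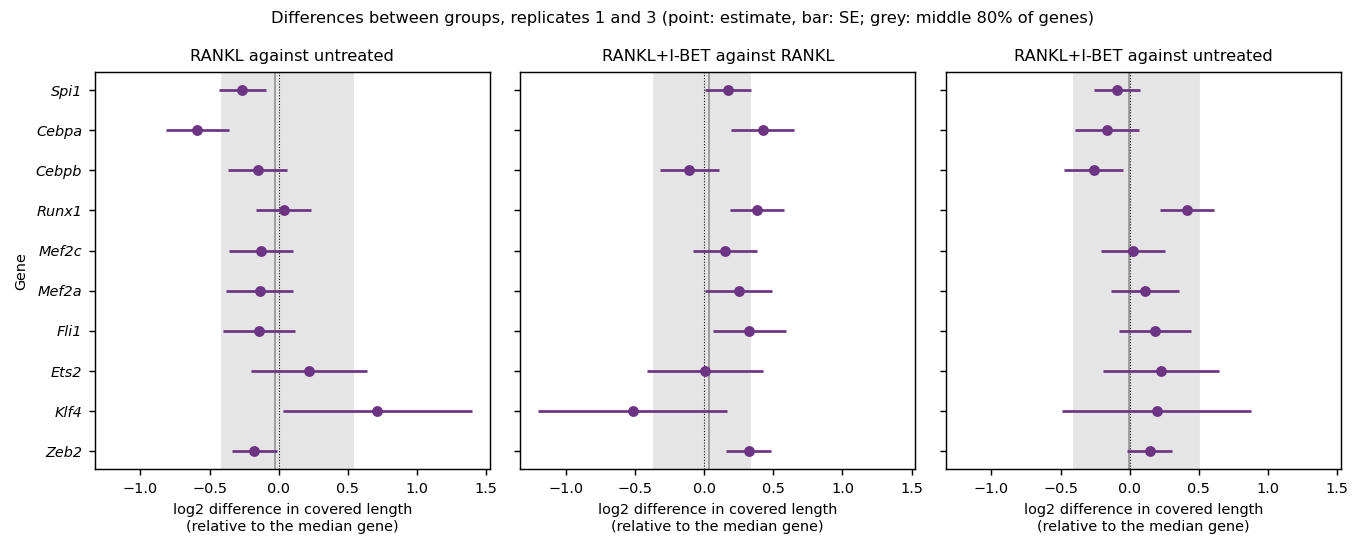
Centred log2 differences in covered length for the 10 members in the 3 comparisons (point: limma estimate from replicates 1 and 3; bar: SE; grey band: the middle 80% of all genes tested; grey line: their median). Klf4 lies at 0.71 and Cebpa at -0.59 for RANKL against untreated, and most members lie right of 0 for RANKL plus I-BET against RANKL.

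A stretch under peaks in 2 or more lists was called a region. There were 21013 in all and 53 in the member windows, of which 44 overlapped a member's gene. Member regions had a median width of 1762 bp, beside 1214 bp for all regions. All 6 lists held 28 of the 53 (52.8%, beside 45.2% of all regions), and all 10 lists held 15 (28.3%, beside 18.8%). Of the replicate 2 lists, RANKL held 46 of the 53 (88.7% of all regions), RANKL plus I-BET 21 (25.3%) and untreated 21 (41%).

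Few member regions followed treatment. Both RANKL lists but neither untreated list held 2, or 3.77% of the 53, beside 4.94% of all regions. Both stayed when replicate 2 was included, beside 3.42%. One was region 8 of Runx1 (chr16:92739803-92740549, inside the gene), which RANKL plus I-BET replicate 1 and the I-BET list also held. The other was region 11 of Mef2c (chr13:83651824-83652434, inside the gene), which both RANKL plus I-BET lists and the I-BET list held as well. No member region was held with RANKL and lost with RANKL plus I-BET (0 of 53, beside 2.41%, and 0 beside 1.65% with replicate 2 included). Region 4 of Zeb2 (chr2:45099542-45101303) was held with RANKL plus I-BET and not with RANKL, a pattern of 0.471% of all regions, and untreated replicate 1 and I-BET alone held it too. That pattern made up 4.67% of all regions and 3.70% of member regions when the lists were reduced to one covered length. At a -log10 q of at least 5 no member region had it, beside 4.09% of all. Held with RANKL plus I-BET and not untreated were 2 (2.39% of all), Mef2c region 11 and Fli1 region 2, and 0 showed the reverse (0.447%).

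The count of regions held with RANKL and not untreated rested on single lists. It was 7 without untreated replicate 1 (13.2% of member regions, beside 10.2% of all regions) and 6 without RANKL replicate 1 (11.3%, beside 10.8%). It stayed at 2 without untreated replicate 3 (beside 15.5%) and without RANKL replicate 3 (beside 11.5%). When the lists were reduced to one covered length it was 0, beside 2.66%.

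**Figure D5:**
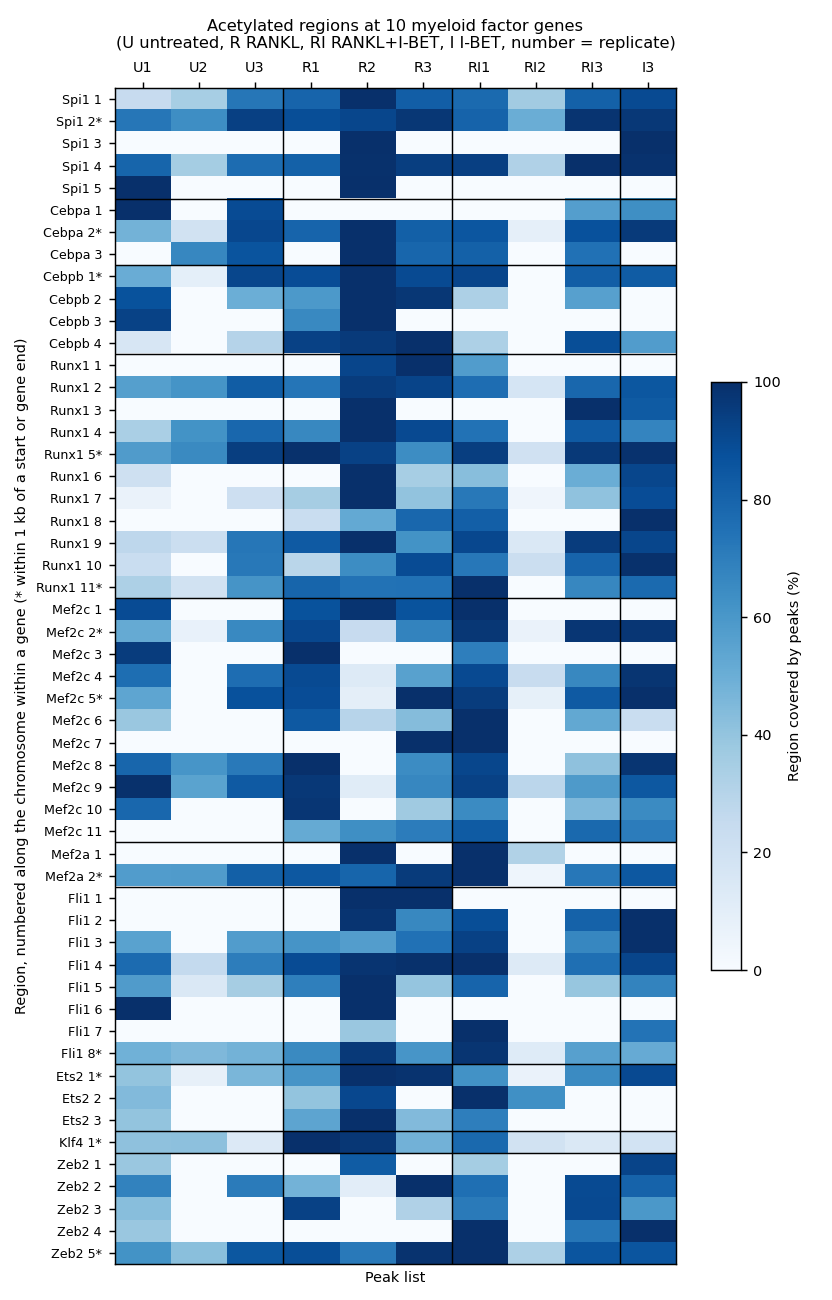
Percentage of each of the 53 regions that lay under peaks in each of the 10 lists (rows: regions numbered along the chromosome within a gene, with * for those near a start or gene end; columns: lists). Most Mef2c and several Zeb2 rows are pale in RANKL replicate 2, where most rows of the other genes are dark.

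I-BET alone had 1 list and is set beside untreated replicate 3, with no test. Covered length was greater with I-BET at 8 of 10 members, beside 44.6% of all genes, and Cebpa and Cebpb were the exceptions. The centred differences at Ets2 (1.11 to 2.15 kb) and Fli1 (8.88 to 14.5 kb) were 0.75 and 0.71 (log2), the largest of the set. Untreated replicate 1 had 2.14 kb at Ets2, about the length seen with I-BET, and 11.2 kb at Fli1. The Fli1 peaks of untreated replicate 1 were of low fold, the strongest at the 2.6th percentile of that list. No member passed a 2-fold difference, beside 2.01% of genes higher and 4.49% lower. I-BET held 12 member regions that untreated replicate 3 did not, 22.6% of the 53 beside 7.85% of all regions. Among them, regions 6 and 10 of Mef2c, 6 of Runx1, and 1, 3 and 4 of Zeb2 were held by untreated replicate 1. The reverse was found for 2, or 3.77%, beside 9.27%.

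The wider group of 53 other lineage factors (relatives of the members, progenitor and branch factors, and monocyte and macrophage factors) was measured for comparison, and 39 were tested. For RANKL against untreated 16 of 39 had a positive centred difference, with a median of -0.09. For RANKL plus I-BET against RANKL 24 did, with a median of 0.03, and limma called 0 in any comparison. By share of the window, the 6 highest were Klf6 (22.5%), Lyl1 (20.03%), Irf5 (11.6%), Mef2d (11.2%), Nr1h3 (10.2%) and Cebpd (9.91%). Klf6, a zinc-finger factor of activated macrophages, was thus at the level of Spi1.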

How the data were processed

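Chromatin immunoprecipitation with sequencing (single-end 50 bp reads) gave H3K27ac in RAW264.7 cells fixed with 1% formaldehyde. The series has 20 samples, of which 10 are inputs without a list and were not analysed here. The authors, per the submitters' processing notes, used FastQC, Bowtie2 and MACS2 on mm10 (GRCm38). Versions, peak settings and the use of inputs are not given in the sources used here. Each deposited list gives per peak a score (10 times the -log10 q), the authors' fold enrichment (a linear ratio), and p-values and q-values on a -log10 scale, used only within a list. The deposited lists hold no counts, so the depth is unknown and intervals for counting error are not possible.

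Covered length per gene was the length under peaks in the span plus 25 kb, for 21887 protein-coding genes of RefSeq GRCm38.p6. Genes averaging at least 500 bp over the 6 lists of replicates 1 and 3 were transformed as log2(bp + 500), centred on each list's median and fitted with limma 3.58.1 (R 4.3.3, trended prior, Benjamini-Hochberg adjustment). Without centring, the median gene lay 0.42 and 0.51 (log2) above the untreated mean in the RANKL lists and 0.38 and 0.21 above it in the RANKL plus I-BET lists, and all differences are relative to it. Regions were covered in at least 2 lists, and 1 bp sufficed to hold one. Python 3.11.15, numpy 2.4.6 and matplotlib 3.10.9 did the rest. Code was tested on simulated data.

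Same-numbered lists deviated together (correlations 0.148 to 0.583, 3 pairs in each comparison), every pair above 0.1, and replicate numbers may pair the lists. Deviations were taken from group means that included replicate 2. RANKL replicate 1 gave 0.148 with untreated replicate 1 and 0.211 with untreated replicate 3. Lists with different numbers gave -0.519 to -0.110 where 1 of them was a replicate 2 list. Replicates 1 and 3 gave 0.053 to 0.384 with each other, a range that overlaps that of same-numbered lists. Since replicate 2 enters the group means, these correlations cannot decide whether the numbers pair the lists. The main fit, which gave the SEs and p-values above unless alternatives are named, did not pair the lists. The fit with replicate numbers as a block also gave 0 calls, so the calls cannot show whether pairing matters. At an unadjusted p under 0.05, limma gave 794, 386 and 730 genes with the block, against 488, 212 and 451 without. These counts are for RANKL against untreated, RANKL plus I-BET against RANKL, and RANKL plus I-BET against untreated. Alternatives were the lists used, one covered length, windows of 5 and 50 kb, pseudocount, filter, centring, -log10 q of at least 5, the block, and leaving out each replicate. Those for I-BET alone and for the 250 bases were chosen after seeing the data. The members, lists and rules were chosen with earlier results of these data known. Genes named were the members, the 6 other lineage factors with the highest covered share or any past the test, the 1 gene most alike to each member, and neighbours with peaks at their ends in a member's window.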

Additional observations from a re-analysis of the deposited data

How the results depend on the processing

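No gene was called by limma in any comparison under any of the 18 alternatives run, the replicate block included (0 calls), and the lowest adjusted p of a member was 0.125 (Runx1, RANKL plus I-BET against untreated). Of 525 member differences under alternatives, 79 changed sign, and 6 of 30 member and comparison pairs never did: RANKL plus I-BET against RANKL at Cebpa, Runx1, Fli1 and Zeb2, and against untreated at Runx1 and Zeb2. Counts of members without overlap moved as follows, with the share of all genes tested under the same setting in brackets. RANKL against untreated, 9 higher as deposited, gave 1 higher (20.2%) and 1 lower (13.9%) with 6 lists at one covered length. It gave 0 higher (1.39%) and 2 lower (5.19%) with all 9 at one length, and 4 higher (37.9%) at a -log10 q of at least 5. RANKL plus I-BET against RANKL, 2 higher and 1 lower, gave 0 higher (0%) with all 9 lists and 0 lower (16.9%) with 6 lists at one length. It gave 1 higher (5.74%) and 0 lower (1.41%) with all 9 at one length, 0 lower (26.3%) in the 5 kb window, and 1 higher (7.92%) and 2 lower (23.9%) at that q. RANKL plus I-BET against untreated, 3 higher, gave 0 with all 9 lists (0.468%), 0 with all 9 at one length (3.06%) and 5 in the 50 kb window (36.4%). Regions held with RANKL and not untreated, 2, were 4 when peaks had to cover 50% of a region (7.55% of member regions, 8.78% of all), 4 at that q (12.9%, 13.2%) and 0 at one length (2.66% of all), and 2 to 7 with a replicate left out. Regions held with RANKL and not with RANKL plus I-BET, 0, were 2 at that q (6.45%, beside 9.21% of all) and 1 at one length (1.85%, 3.62%). With a replicate left out they were 0 to 3, the highest without RANKL plus I-BET replicate 1 (5.66%, 10.1%). Members with a start peak in all 6 lists, 8, were 0 at that q and 0 with 10 lists at one length (0.0114% of genes in both). For I-BET alone, 0 members past 2-fold became 2 at one length (24.8% of genes) and 3 at that q (48%). Starts with a peak over the 250 bases in both RANKL lists and neither untreated list, 2, became 0 at one length (4.48% of starts). The cause of these changes was not tested. The lists hold no counts, so depth cannot be weighed.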

Other observations

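Regions held by all 6 lists were wider than the rest: the 28 member regions in that class had a median of 3758 bp, beside 767 bp for the 25 held by fewer. Since 1 bp sufficed to hold a region, the rule itself favours wide regions, and nothing is concluded from this difference. When peaks had to cover 50% of a region, all 6 lists held 13 member regions. The widest was the 14867 bp region over the starts of Zeb2, followed by 11369 bp at Spi1 and 9692 bp at Mef2c start 2. Among the neighbours, Gm12506, a long noncoding RNA annotated directly beside Klf4, had a peak at its end in all 10 lists, and Lysmd4 and 1700112J16Rik, in the Mef2a window, had one in 3 lists.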
